A study of Homo sapiens with 64 samples.

Results

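The genes described here encode the mitochondrial ribosomal proteins, which were taken as every protein-coding gene in the count tables whose symbol begins with MRPL or MRPS and goes on with a number and at most 1 further letter. By this rule 74 of the 54127 counted genes were members. In GENCODE release 44 on GRCh37, 78 genes match the rule, and the other 4, MRPL12, MRPL45, MRPL46 and MRPS21, were not analysed here. RNA sequencing was done on 64 samples of 6 established colorectal cancer cell lines, HT55, SW948, RKO, SW48, DLD1 and HCT15, all grown as spheroids without adherence and with the growth factors bFGF and EGF. For 48 samples, cells were labeled with CFSE, a dye whose content per cell drops as cells divide, and sorted on day 6 into bright label-retaining cells (LRCs, labeled dormant) and the remaining dye population (BULK in the labels, labeled cycling and called non-LRCs here), with 4 replicates of each population in each line. The other 16 samples were unsorted DLD1 spheroids that received CFSE or DMSO, the carrier without dye, and were harvested on d1 or d5 by the labels, with 4 replicates per group (the study's methods give the later day as day 6). Each line is 1 established culture, so its replicates measure the spread between cultures of that line and not between tumors.

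Mitochondria have their own ribosome, which translates the small set of proteins encoded in mitochondrial DNA, all of them core parts of the respiratory chain and ATP synthase. Its RNAs come from mitochondrial DNA, but its proteins are encoded in the nucleus, made in the cytosol and imported. The large subunit holds the site where peptide bonds are made, and the small subunit binds the mRNA and reads its codons. Many of these proteins descend from bacterial ribosomal proteins, while others were gained in the mitochondrial lineage.

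Of the 74 members, 48 belong to the large subunit and 25 to the small subunit. The remaining 1, MRPS36, carries the name but is now known as a component of the 2-oxoglutarate dehydrogenase complex. MRPS30 and MRPS18A sit in the large subunit despite their symbols and were counted there. By descent, 46 members have a bacterial homolog and 27 are specific to mitochondria. The genes are scattered over 21 chromosomes. On GRCh37, MRPL16 lies at chr11:59573613-59578251, MRPL24 at chr1:156707095-156711382, MRPS27 at chr5:71510780-71617544 and MRPS34 at chr16:1821891-1823151, all on the minus strand. MRPS26 lies at chr20:3026698-3028896, MRPS18C at chr4:84377085-84390888 and MRPS6 at chr21:35445524-35515334, on the plus strand. For 15 members (20.3%) the nearest start on the opposite strand within 1000 bp belonged to another protein-coding gene that points away, against 8.29% of all protein-coding genes. Among these head-to-head neighbours were FAU, which encodes a cytosolic ribosomal protein, beside MRPL49, and SARS2, the mitochondrial seryl-tRNA synthetase, beside MRPS12. Exon bases were shared with another counted gene for 33 members, so some of their reads could have been left unassigned or given to the neighbour, since whether counting used the strand is not given in the sources used here. The 63 MRP pseudogenes in the tables held 498 reads over all samples, 0.0139% of the 3580476 reads on the members.

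Promoter sequence was examined because many members moved in the same direction. RefSeq windows of the 250 bases before the annotated start (GRCh38.p14) were used for 65 members. The letters CCGGAAG, a core recognized by ETS factors such as the GABP complex, were found on either strand in 22 of these 65 windows (33.8%), against 11.8% of 15843 promoters of the same length. The core of the site of the factor NRF1 was found in 7 (10.8%, against 7.65%), and a long form of the YY1 site in 1 (1.54%, against 0.284%). The E-box CACGTG, a site for MYC among others, was found in 5 (7.69%, against 7.84%). No motif contains another, and a window could hold several. The windows of 5 members to which the results return are printed below with CCGGAAG or its reverse complement and CACGTG in capitals. They show 3 ETS cores close to the start of MRPS34 and 1 each for MRPS26 and MRPL3. MRPS18C carries an ETS core and an E-box, and MRPL16 holds none of the 4 motifs. All are written 5′ to 3′ toward the gene, ending at the base before the start. On GRCh38.p14, the MRPS34 window is chr16:1773135-1773384 on the minus strand, that of MRPS26 is chr20:3045802-3046051 on the plus strand, that of MRPL3 is chr3:131502972-131503221 on the minus strand, that of MRPS18C is chr4:83455808-83456057 on the plus strand and that of MRPL16 is chr11:59810779-59811028 on the minus strand.
MRPS34: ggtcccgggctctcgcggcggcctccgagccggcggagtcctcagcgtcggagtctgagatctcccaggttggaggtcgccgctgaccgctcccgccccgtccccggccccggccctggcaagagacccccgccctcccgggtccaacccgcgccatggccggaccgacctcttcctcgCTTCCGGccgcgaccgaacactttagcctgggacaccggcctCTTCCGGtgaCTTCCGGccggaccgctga
MRPS26: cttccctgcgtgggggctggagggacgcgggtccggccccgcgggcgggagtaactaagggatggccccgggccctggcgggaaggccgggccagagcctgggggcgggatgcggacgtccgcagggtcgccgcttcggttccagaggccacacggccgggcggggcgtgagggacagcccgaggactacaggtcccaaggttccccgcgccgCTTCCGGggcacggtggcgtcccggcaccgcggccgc
MRPL3: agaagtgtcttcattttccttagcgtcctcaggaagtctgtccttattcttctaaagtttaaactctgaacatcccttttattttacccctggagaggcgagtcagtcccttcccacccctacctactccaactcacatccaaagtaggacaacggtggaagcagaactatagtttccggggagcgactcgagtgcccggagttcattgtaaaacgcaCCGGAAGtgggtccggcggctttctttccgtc
MRPS18C: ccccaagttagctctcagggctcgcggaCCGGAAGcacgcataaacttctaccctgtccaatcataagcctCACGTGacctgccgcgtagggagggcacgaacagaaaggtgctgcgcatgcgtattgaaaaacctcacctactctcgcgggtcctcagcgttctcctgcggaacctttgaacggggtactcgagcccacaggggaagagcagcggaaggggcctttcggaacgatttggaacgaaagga
MRPL16: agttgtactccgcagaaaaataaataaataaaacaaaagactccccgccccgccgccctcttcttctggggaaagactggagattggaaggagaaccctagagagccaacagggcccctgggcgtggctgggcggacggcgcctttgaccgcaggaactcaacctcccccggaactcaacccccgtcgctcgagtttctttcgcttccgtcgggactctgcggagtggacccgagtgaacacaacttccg

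Between 12237225 and 20913455 reads per sample fell on genes, with a median of 15063858. Levels are given as CPM (reads on a gene scaled to a common library size) after TMM scaling over all samples, and the median coefficient of variation of a member between replicates was 8.70%. The 7 epithelial markers checked (EPCAM, CDH1, KRT8, KRT18, KRT19, CDX2 and VIL1) summed to between 3091 and 15122 CPM in the group means of the sorted samples of 5 lines, but to only 237 ± 18.04 CPM in RKO non-LRCs and 302 ± 25.1 CPM in RKO LRCs (SD, n = 4). Markers of blood, fibroblast and endothelial cells summed to between 0.681 and 17.3 CPM in the group means of all sorted samples.

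The members were expressed at very different levels. Compared per length, as CPM per kb of transcript over the 48 sorted samples, the median member stood at 38.9. The length was the median over the protein-coding transcripts annotated for each gene. By this measure MRPL49 (180.5 ± 50.4 SD over samples) and MRPL51 (164 ± 33.9), both proteins of the large subunit that bacteria lack, were the highest. MRPL41 (85.9 ± 34.4) followed. For MRPL49 the length used was 509.5 bases, against 2026 for its canonical transcript, so its top rank depends on the choice of length. At the other end stood MRPL53 (5.27 ± 1.23) and MRPS17 (4.79 ± 1.57), the latter a homolog of the bacterial small-subunit protein S17. MRPL53 shares exon bases with CCDC142, and MRPS17 with NIPSNAP2 and ENSG00000249773, so some of their reads may not have been counted. MRPL30 held 100 reads in 64 samples, was left out of every test by the filter on low counts, and overlaps a readthrough gene, ENSG00000241962, so reads shared by both could not be assigned to it. The other 73 members were tested in every comparison. Of the 74, 69 reached at least 10 CPM per kb.

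Levels also differed between lines. Between the non-LRC means of the 6 lines, the median member spanned a range of 0.98 on the log2 CPM scale. MRPL13, a homolog of bacterial L13, spanned 2.14, from 26.2 ± 6.46 CPM in SW48 to 114 ± 8.06 CPM in RKO (SD, n = 4). MRPS2, a homolog of bacterial S2, spanned 2.06, from 67.4 ± 4.96 CPM in SW948 to 281 ± 11.1 CPM in RKO. MRPL15 spanned 1.94, from 33.4 ± 1.84 CPM in HT55 to 128 ± 3.799 CPM in RKO. RKO was the highest line for all 3, and their replicates in the highest line did not overlap those in the lowest.

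The first question was whether LRCs carry less mRNA for the mitochondrial ribosome than non-LRCs of the same line. Summed over the 74 members, RKO non-LRCs stood at 4681 ± 321 CPM and RKO LRCs at 3771 ± 78.5 CPM (SD, n = 4), a difference of -19.4%, with all 4 LRC samples below all 4 non-LRC samples. In DLD1 the sums were 3456 ± 30.3 CPM and 3116 ± 81.0 CPM, a difference of -9.85%, again without overlap. In the other 4 lines the LRC mean was lower but the populations overlapped, and of the 4 same-numbered pairs LRCs were lower in 4 in HT55 and in 3 each in HCT15, SW48 and SW948. It was 3952 ± 268 against 4232 ± 121 CPM in SW948 (-6.61%), 3424 ± 179 against 3656 ± 137 CPM in SW48 (-6.35%), 3169 ± 162 against 3312 ± 218 CPM in HT55 (-4.33%) and 3093 ± 179 against 3211 ± 137 CPM in HCT15 (-3.68%). In these bulk samples, fewer cells that express a gene and less RNA per cell cannot be told apart.

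**Figure D1:**
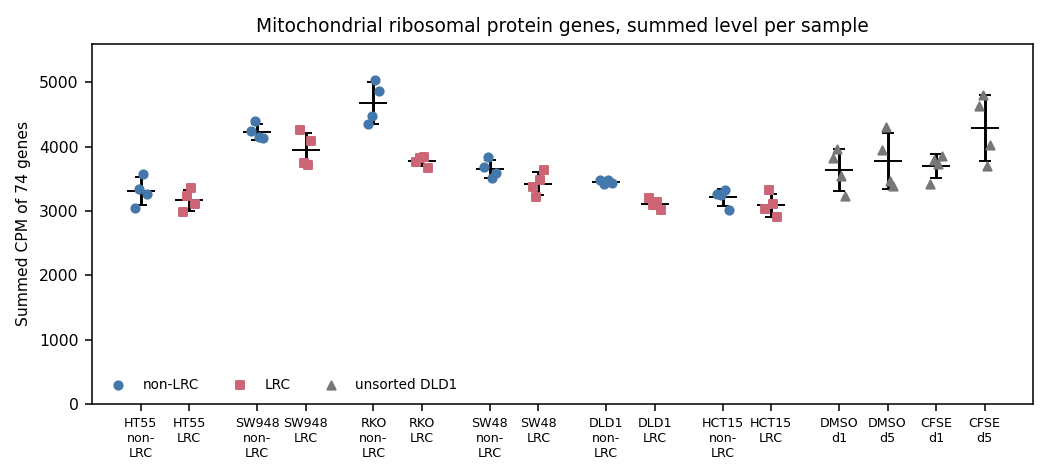
Summed CPM of the 74 mitochondrial ribosomal protein genes in each of the 64 samples, with points for samples and black bars for the group mean and SD (n = 4). LRCs lie below non-LRCs without overlap in RKO (3771 against 4681 CPM on average) and DLD1 (3116 against 3456 CPM), and the populations overlap in the other 4 lines.

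Gene by gene, 43 of the 73 tested members (58.9%) were lower in LRCs across the 6 lines and 1, MRPS6, was higher (edgeR quasi-likelihood test with line as a covariate, adjusted p under 0.05). Among all 16603 genes tested, 10.7% were called lower and 12.2% higher. The median member had a log2 fold change of -0.13, against 0.01 for all genes, and 93.2% of members had a negative value, against 46.4% of all genes. The changes were small and ran from -0.34 (MRPL16) to 0.25 (MRPS6). In 23 members the log2 fold change was negative in every one of the 6 lines. In 24 members LRCs were lower in at least 20 of the 24 same-numbered pairs. Neither count was made over all genes, so neither can be set against a background. Without RKO, 22 members were called lower and MRPS6 higher, with a median of -0.08 against 0.00 for all genes, of which 6.62% were called lower and 7.98% higher in that fit. Without replicate 3, 27 members were called in place of 44. That fit held fewer samples for every gene, and the share of all genes that it called is not given here.

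MRPL16 is a homolog of bacterial L16, which lies beside the tRNA sites of the large subunit, and its log2 fold change across the lines was -0.34 ± 0.05 (SE, adjusted p = 2.58e-06). Its RKO LRC samples held 53.4, 56.2, 60.4 and 52.5 CPM and the RKO non-LRC samples 81.9, 85.5, 99.1 and 89.2 CPM. In DLD1 the LRCs held 58.2, 50.2, 51.8 and 50.4 CPM and the non-LRCs 68.6, 64.7, 71.5 and 73.95 CPM. Neither line showed any overlap, and LRCs were lower in 23 of 24 pairs over the 6 lines. In SW48 the LRCs held 44.7, 56.5, 50.0 and 51.6 CPM and non-LRCs 51.9, 75.2, 52.7 and 56.8 CPM, which overlap as groups although LRCs were lower in all 4 same-numbered pairs.

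MRPS26, a small-subunit protein specific to mitochondria, had a log2 fold change of -0.27 ± 0.04 (SE, adjusted p = 1.09e-06), with lower LRC values in 23 of 24 pairs. RKO LRCs held 68.4, 62.3, 72.3 and 61.02 CPM against 91.7, 93.6, 105 and 102 CPM in non-LRCs. In SW948 the LRCs held 37.8, 36.3, 36.2 and 39.0 CPM against 47.0, 49.9, 41.0 and 44.5 CPM, so that the LRC samples lay below the others in this line too, although no member passed the test in SW948. MRPL15, a homolog of bacterial L15 in the core of the large subunit, had the smallest p of all members, with a log2 fold change of -0.20 ± 0.03 (SE, adjusted p = 8.83e-07). It fell in RKO from 124, 127, 130 and 132 CPM in non-LRCs to 102, 103, 107 and 104 CPM in LRCs. In DLD1, MRPL15 stood at 47.6, 42.4, 43.4 and 45.4 CPM in non-LRCs and 39.7, 34.6, 38.3 and 41.1 CPM in LRCs, with no overlap but an adjusted p of 0.073.

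MRPS27, an RNA-binding protein with pentatricopeptide repeats in the small subunit, was among the evenest across lines, at -0.21 ± 0.03 (SE, adjusted p = 2.04e-05), with line values from -0.14 to -0.30. Its replicates in HCT15 were 139, 136, 137 and 136 CPM in non-LRCs and 111, 126, 118 and 127 CPM in LRCs. In RKO they were 233, 247, 237 and 251 CPM against 189, 209, 195 and 195 CPM. Both lines showed separate groups for this gene, but only RKO and DLD1 passed the test for it. The remaining members with the smallest p were MRPL4 (-0.25 ± 0.04), whose bacterial homolog lines the exit tunnel, MRPL24 (-0.28 ± 0.05), also near the exit tunnel, MRPS28 (-0.28 ± 0.05), MRPL11 (-0.29 ± 0.05), at the base of the stalk where translation factors bind, MRPL35 (-0.19 ± 0.03) and MRPL3 (-0.20 ± 0.04). Their adjusted p-values lay between 9.70e-06 and 7.30e-05 (edgeR quasi-likelihood test).

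MRPS6, a homolog of bacterial S6 on the platform of the small subunit, was the member that was higher in LRCs (log2 fold change 0.25 ± 0.04 SE, adjusted p = 4.11e-05), with lower LRC values in only 2 of 24 pairs. In DLD1 the LRCs held 38.1, 35.7, 35.3 and 37.9 CPM and the non-LRCs 30.9, 34.2, 30.1 and 29.2 CPM. In HT55 the values were 34.7, 26.8, 37.7 and 31.6 CPM against 24.2, 25.7, 23.5 and 21.96 CPM. Both lines showed LRCs above non-LRCs without overlap, though only DLD1 passed the test (adjusted p = 0.023). MRPS6 shares exon bases with SLC5A3, which encodes a transporter of the osmolyte myo-inositol and lies inside the MRPS6 locus. SLC5A3 was itself higher across the lines (0.30 ± 0.07 SE, adjusted p = 0.0021), and its part in the MRPS6 value was not tested.

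**Figure D2:**
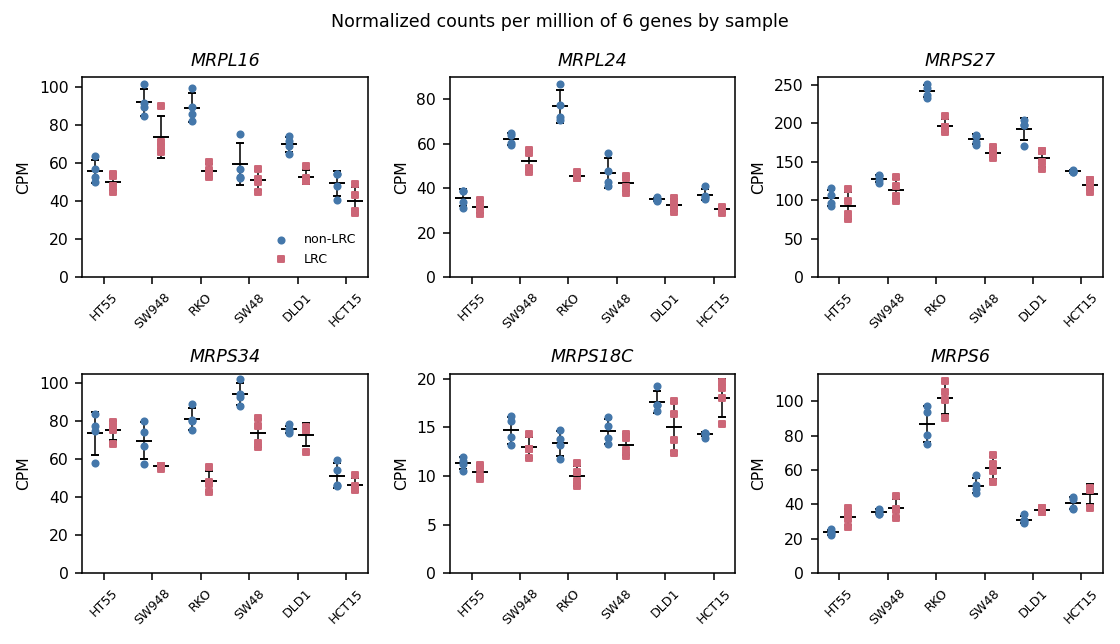
CPM of MRPL16, MRPL24, MRPS27, MRPS34, MRPS18C and MRPS6 in each sorted sample by line, with black bars for the mean and SD (n = 4). MRPL16, MRPL24 and MRPS34 show the widest gaps in RKO, MRPS18C lies above non-LRCs in HCT15 alone, and MRPS6 has a higher LRC mean in every line.

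Of the 47 tested large-subunit members, 28 were lower (median -0.13), and of the 25 of the small subunit, 15 were lower and MRPS6 higher (median -0.13). Members with a bacterial homolog were lower in 28 of 45 cases and mitochondria-specific members in 15 of 27. No member of the large subunit was called higher across the lines. The 21 tested members with the ETS core in the promoter window were lower in 12 cases (57.1%), and the 43 without it in 25 cases (58.1%). For the E-box the counts were 1 of 5 (20%) with it and 36 of 59 (61.02%) without it, for the NRF1 core 3 of 6 (50%) and 34 of 58 (58.6%), and the 1 member with the YY1 form was not called lower. Among the MRPS18 paralogs, which share an ancestor with bacterial S18, MRPS18A was lower (-0.16 ± 0.04 SE, adjusted p = 0.0059), MRPS18B stood at -0.06 ± 0.04 (adjusted p = 0.26) and MRPS18C at -0.11 ± 0.05 (adjusted p = 0.11).

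In the main fits, which held no replicate block, the lines differed widely in how many members could be called. In RKO, 54 of 73 members (73.97%) were lower and 0 higher, where 21% of all genes tested in RKO were called lower and 20.4% higher. The RKO median was -0.34, against 0.01 for all genes, and in 47 members all 4 LRC samples lay below all 4 non-LRC samples (64.4%, against 19.4% of all genes). In 14 of the 54 the log2 fold change was -0.5 or lower. MRPL24 was lowest in relative terms, at 44.4, 44.7, 47.2 and 45.6 CPM in LRCs against 72.1, 70.7, 86.8 and 77.3 CPM in non-LRCs, a log2 fold change of -0.75. MRPS34, a small-subunit protein specific to mitochondria, followed with 46.7, 42.7, 55.7 and 48.2 CPM against 80.4, 75.2, 88.9 and 80.2 CPM, also -0.75. For both genes the lowest non-LRC sample lay well above the highest LRC sample. MRPS33 had the highest value in RKO, at 0.35, and did not pass the test (adjusted p = 0.060).

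In DLD1, 12 members were lower (16.4%, where 7.89% of all genes were) and 2 were higher, MRPL41 and MRPS6 (6.67% of all genes were called higher). The median was -0.13, against 0.02 for all genes, and in 20 members all LRC samples lay below all non-LRC samples (27.4%, against 13.1%). MRPL3, a homolog of the bacterial protein L3 near the peptidyl transferase centre, fell from 128, 125, 128 and 129 CPM to 98.4, 108, 99.1 and 103 CPM (-0.30, adjusted p = 0.0031). MRPS9, whose bacterial homolog reaches the tRNA in the small subunit, fell from 49.1, 50.1, 52.5 and 49.02 CPM to 40.3, 42.2, 38.3 and 41.1 CPM (-0.29, adjusted p = 0.0062). In RKO the same gene stood at 45.2, 45.4, 49.8 and 53.4 CPM in non-LRCs and 47.1, 46.8, 46.7 and 43.9 CPM in LRCs, which overlap. MRPL41, which bacteria lack, went the other way in DLD1, from 33.8, 40.7, 33.1 and 35.9 CPM to 49.1, 42.8, 47.1 and 39.9 CPM (0.34, adjusted p = 0.022), with 1 LRC sample below the highest non-LRC sample. In RKO MRPL41 was lower in LRCs (-0.25, adjusted p = 0.022). In DLD1 the small subunit supplied 8 of its 25 members to the lower calls and the large subunit 4 of 47. In RKO the split was even, with 18 of 25 (72%) and 35 of 47 (74.5%). The difference between subunits was not tested. Of the 12 called lower in DLD1, 10 were also called lower in RKO, where 73.97% of all tested members were called lower. The same overlap over all genes was not counted. With the replicate number as a block, 26 members were lower (35.6%, where 16.6% of all genes were) and 3 higher in DLD1 (4.11%, where 17.1% were). Without replicate 1 there were 2 calls, without replicate 3 there were 4 and without replicate 4 there were 6. These fits held fewer samples for every gene, and the share of all genes that they called is not given here.

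In HCT15, SW48, HT55 and SW948, 0 members passed the test without a replicate block (edgeR quasi-likelihood test). In these lines 0.977%, 0.796%, 0% and 0% of all genes were called in either direction, so the members were not set apart by the lack of calls. At an unadjusted p under 0.05 there were 12 members in HCT15, 7 in SW48, 7 in HT55 and 15 in SW948. These are 16.4%, 9.59%, 9.59% and 20.5% of members, against 17.2%, 13.1%, 7.51% and 17.2% of all genes. DESeq2 called 0, 1, 0 and 0 members, where it called 3.77%, 2.73%, 0.276% and 1.79% of all genes. Medians were -0.03 in HCT15, -0.09 in SW48, -0.06 in HT55 and -0.10 in SW948, against -0.01 or closer to 0 for all genes. Complete separation with LRCs below was seen for 7 members in HCT15 (9.59%, against 5.7% of all genes), 5 in SW48 (6.85%, against 3.86%), 3 in HT55 (4.11%, against 1.49%) and 5 in SW948 (6.85%, against 2.11%). Same-numbered samples met the pairing rule given with the processing in HCT15, SW48 and HT55, but not in SW948. With the replicate number as a block, HCT15 gave 10 lower and 1 higher and SW48 gave 2 lower and 1 higher, while HT55 gave 0. The count of 0 in HCT15 and SW48 thus depended on the fit. Among all genes the fit with the block called 10% lower and 11.3% higher in HCT15 and 4.33% and 5.36% in SW48. The shares of members were 13.7% and 1.37% in HCT15 and 2.74% and 1.37% in SW48.

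**Figure D3:**
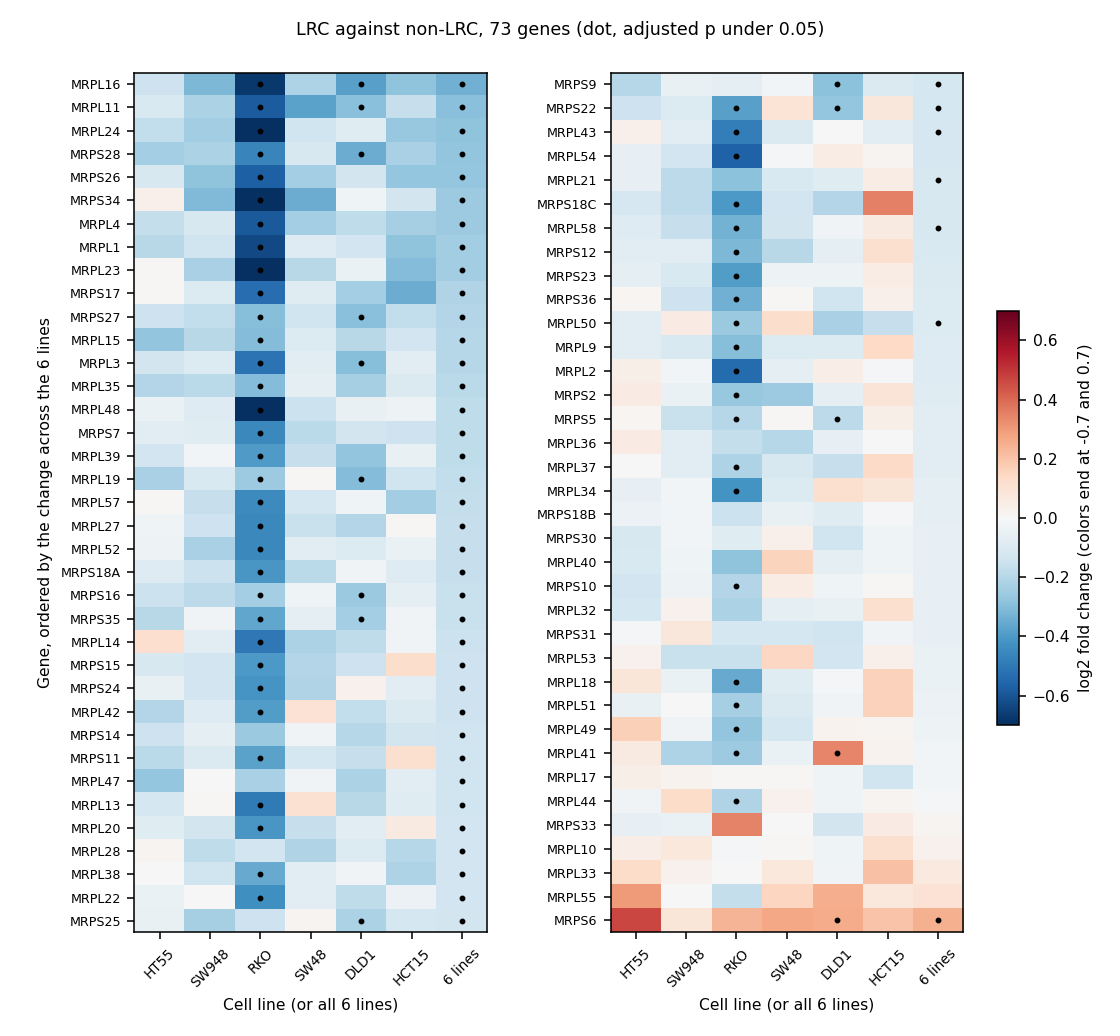
Log2 fold change of LRCs against non-LRCs for the 73 tested members (rows, ordered by the value across lines, in a left and a right panel) in each line and across the 6 lines, with a dot where the adjusted p was under 0.05. The RKO column is the darkest blue, with 54 dots, DLD1 has 14 dots, and the other 4 lines have none. The fits shown held no replicate block.

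Whether a member changed unequally between lines was tested directly with the 5 line by population terms. Of the 73 members, 14 passed (19.2%, against 14.3% of all genes), which is close to the background. MRPS34 had the smallest p (adjusted p = 0.00071), with log2 fold changes of -0.75 in RKO and -0.35 in SW48 but 0.04 in HT55 and -0.03 in DLD1. Its HT55 samples held 68.0, 79.7, 75.6 and 77.1 CPM in LRCs and 57.8, 77.5, 84.0 and 74.9 CPM in non-LRCs, which overlap. MRPL24 followed (adjusted p = 0.0015), with -0.75 in RKO and -0.09 in DLD1, where LRCs held 32.0, 29.1, 35.5 and 32.8 CPM and non-LRCs 34.4, 34.5, 34.8 and 36.1 CPM. MRPS18C was the third (adjusted p = 0.0057), at -0.40 in RKO and 0.35 in HCT15. The HCT15 LRCs held 18.1, 19.7, 19.1 and 15.3 CPM of MRPS18C, all above the 13.9, 14.3, 14.4 and 14.4 CPM of the non-LRCs, whereas the RKO LRCs (9.46, 11.3, 8.93 and 10.4 CPM) lay below the non-LRCs (13.8, 11.7, 13.2 and 14.8 CPM). MRPS18C shares exon bases with ABRAXAS1, a member of the BRCA1-A complex, which stood at 0.41 in RKO (adjusted p = 0.0033) and -0.29 in HCT15 (adjusted p = 0.34), and its part in the MRPS18C values was not tested. The count of 14 fell to 2 without replicate 1, 5 without replicate 3 and 2 without replicate 4. For these 3 fits the share of all genes called is not given here. The count stood at 30 with the replicate block (41.1%, where 33.6% of all genes were called).

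Other genes of the same system were set beside the members. Of the 5 ribosome subunits whose symbols do not follow the MRP pattern, 2 were lower across the lines, PTCD3 (-0.15 ± 0.03 SE) and GADD45GIP1 (-0.18 ± 0.06), and 0 higher. Among 24 factors that assemble the ribosome or modify its RNA, 7 were lower and 1 higher. RBFA, which helps to mature the small subunit, stood at -0.24 ± 0.04, the pseudouridine synthases RPUSD3 and RPUSD4 at -0.25 ± 0.04 and -0.18 ± 0.03. Of 20 mitochondrial aminoacyl-tRNA synthetases and related enzymes, which charge the tRNAs, 13 were lower and 0 higher, led by SARS2 (-0.32 ± 0.04), YARS2 (-0.16 ± 0.03) and LARS2 (-0.16 ± 0.03). Of 15 translation factors 2 were lower, the elongation factors TSFM (-0.15 ± 0.04) and TUFM (-0.12 ± 0.03). Medians were -0.06 for the 5 further subunits, -0.08 for the assembly factors, -0.13 for the synthetases and -0.06 for the translation factors, against 0.01 for all genes.

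The 13 mRNAs encoded in mitochondrial DNA, which the mitochondrial ribosome translates, did not follow its proteins. Across the lines 8 were higher and 0 lower, among them the complex I subunits MT-ND2 (0.35 ± 0.07 SE), MT-ND5 (0.40 ± 0.09) and MT-ND3 (0.32 ± 0.07). The median was 0.24. In RKO 12 of 13 were higher with a median of 0.77, and their sum rose from 54210 ± 9086 CPM in non-LRCs to 89087 ± 15360 CPM in LRCs without overlap (SD, n = 4). In SW48 the sum was 102923 ± 7459 CPM against 141121 ± 3158 CPM, also without overlap, with 3 of 13 called. Populations overlapped in the other 4 lines, and in SW948 (median -0.15) and DLD1 (median -0.01) the lists' medians were below 0. Of the 36 nuclear-encoded subunits of complex I, which assemble with those products, 14 were lower across the lines and 0 higher (median -0.11), and 26 were lower in RKO. Of 8 genes for transcription and replication of mitochondrial DNA, SSBP1 (-0.19 ± 0.04) and TFAM (-0.19 ± 0.05) were lower and 0 higher (median -0.08).

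Of 80 cytosolic ribosomal protein genes taken by symbol, 2 were lower across the lines, RPL22L1 (-0.29 ± 0.05) and RPL7L1 (-0.12 ± 0.03), and 1 higher, RPS27L (0.16 ± 0.06), and all 3 are paralogs of the main proteins. Their median was 0.00. By line it was -0.05 in HCT15, -0.06 in SW48 and -0.08 in SW948, where the members stood at -0.03, -0.09 and -0.10, and the cytosolic sums differed by -5.41%, -4.70% and -5.89%. In RKO, DLD1 and HT55 the cytosolic medians were -0.01, 0.11 and 0.10, where the members stood at -0.34, -0.13 and -0.06. In RKO the cytosolic set summed to 106029 ± 5558 CPM in LRCs, against 106386 ± 11438 CPM for non-LRCs, where the mitochondrial set differed by -19.4%. Among 8 regulators of mitochondrial genes, MYC alone passed the test across the lines (-0.24 ± 0.07 SE, adjusted p = 0.0080). In that fit NRF1 (-0.03 ± 0.04) and GABPA (0.02 ± 0.04), which encode factors that bind the printed motifs or their like, did not pass. By line, MYC passed in RKO (-0.42) and DLD1 (-0.40), and PPRC1 passed in DLD1 (-0.19).

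Proliferation genes moved in some of the same lines. Of 14 tested, 12 were lower in RKO (median -0.69) and 12 in DLD1 (median -0.56). These were the lines in which the main fits called members lower. In SW48 the median was -0.45 with 0 called. It was 0.10 in HCT15, 0.05 in HT55 and -0.05 in SW948, again with 0 called. In those last 3 lines the medians of the members were -0.03, -0.06 and -0.10. Across the lines 8 of 14 were lower and 0 higher, led by the replication helicase subunits MCM3 (-0.24 ± 0.05), MCM2 (-0.28 ± 0.07) and MCM7 (-0.26 ± 0.06). The part of proliferation in the members' values was not tested. Of the epithelial markers, VIL1 was lower across the lines (-0.30 ± 0.10) and 0 were higher. In RKO 2 of 6 tested were higher, KRT8 (0.58, adjusted p = 0.00012) and KRT18 (0.29, adjusted p = 0.016), and their part in the members' values was not tested. Of 4 tested markers of other cell types 0 passed across the lines, with CD14, VWF and COL1A1 at an unadjusted p under 0.05.

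**Figure D4:**
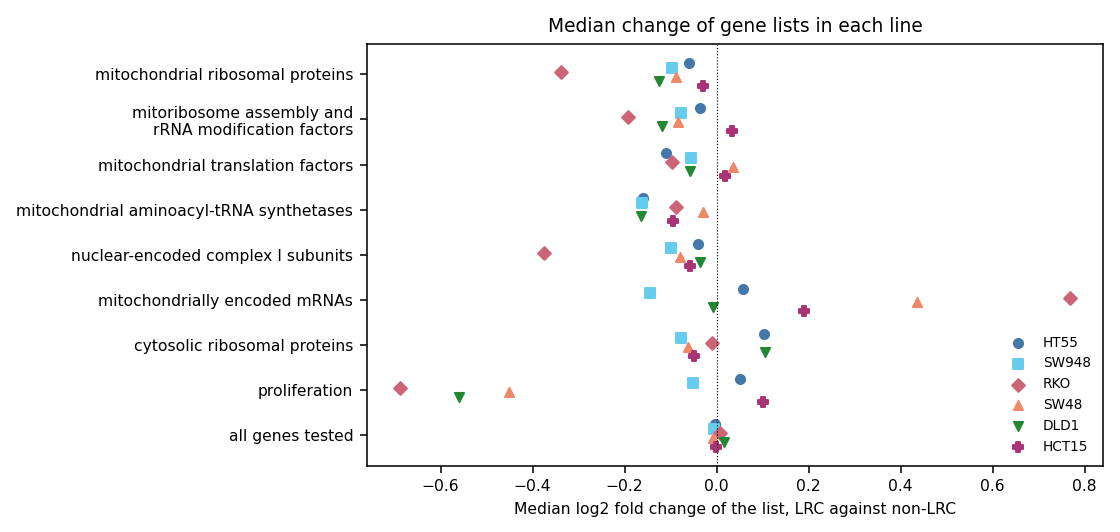
Median log2 fold change of LRCs against non-LRCs for 8 gene lists and for all genes tested, with 1 symbol per line. The mitochondrial ribosomal proteins lie left of 0 in all 6 lines (-0.03 to -0.34), the mitochondrially encoded mRNAs reach 0.77 in RKO, and the medians of all genes lie between -0.01 and 0.02.

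Genes that neighbour the members were counted in the same way. Of 33 tested genes that share exon bases with a member, 3 were lower and 2 higher across the lines (median -0.03). Of 14 tested head-to-head partners, 2 were lower, SARS2 and NDUFS6 (-0.19 ± 0.05), and 0 higher (median -0.04). In RKO the head-to-head partners were lower in 5 cases and higher in 3 of 13 tested (median -0.16), and in DLD1 lower in 2 and higher in 2 of 13 (median -0.11). The difference between members and neighbours was not tested.

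The unsorted DLD1 controls addressed what time in culture and the dye do by themselves. Contrasts that share a group are given side by side. From d1 to d5 with DMSO, 4 members were higher (12.4% of all genes were) and 2 lower (13.1%), shares of 5.48% and 2.74% of the members, with a median of 0.01 against 0.04 for all genes. With CFSE, 16 members were higher (20.2% of all genes were) and 3 lower (19.1%), shares of 21.9% and 4.11%, with a median of 0.14 against 0.02. The share called higher with CFSE was thus near the background. All 4 members called in both contrasts went in the same direction. The same count was not made over all genes, so it cannot be set against a background. Without TMM scaling the medians of all genes moved to -0.09 in both contrasts, and the calls became 0 higher and 6 lower with DMSO (4.92% and 16.5% of all genes) and 9 higher and 8 lower with CFSE (13.5% and 24% of all genes). Upper-quartile scaling gave 0 higher and 3 lower with DMSO (8.8% and 15.1% of all genes) and 12 higher and 4 lower with CFSE (17.3% and 21.4%), so the split depended on the scaling. Reads outside genes made up 8.96% to 14.8% of uniquely aligned reads in d1 samples and 5.19% to 8.35% in d5 samples. Their part in these values was not tested.

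MRPL53 had the largest change with time. It stood at 4.40, 4.14, 5.22 and 2.96 CPM on d1 and 1.47, 1.07, 1.98 and 2.55 CPM on d5 with DMSO (-1.27, adjusted p = 0.0085), and at 5.09, 4.80, 4.36 and 4.597 CPM against 1.43, 1.68, 2.82 and 2.64 CPM with CFSE (-1.20, adjusted p = 0.0032). The days did not overlap in either arm, but these are low counts, and CCDC142, which shares exon bases with MRPL53, was also lower with time (-1.03, adjusted p = 0.038, and -1.22, adjusted p = 0.010). MRPS25, a small-subunit protein specific to mitochondria, stood at 50.9, 43.0, 42.8 and 20.02 CPM on d1 and 19.7, 22.7, 20.4 and 23.1 CPM on d5 with DMSO (-0.91, adjusted p = 0.012), where 1 of the d1 samples lay among the d5 samples. That sample, replicate 4, had a mean log2 CPM of 7.37 over the proliferation genes, against 8.03 to 8.06 in the other d1 DMSO samples. Its mitochondrially encoded mRNAs summed to 25576 CPM, against 38683 to 43734 CPM. It enters the contrasts of time with DMSO and of the dye on d1, and its part in their values was not tested. MRPS14, a homolog of bacterial S14 in the head of the small subunit, rose with DMSO from 29.4, 30.8, 27.5 and 34.3 CPM to 46.3, 44.5, 35.4 and 36.7 CPM (0.38) and with CFSE from 22.1, 25.2, 26.7 and 29.0 CPM to 39.5, 41.6, 34.7 and 38.5 CPM (0.51). The DMSO calls of MRPS14, MRPL33 (0.40) and MRPS33 (0.35) were lost without TMM scaling, with upper-quartile scaling, and without each of the replicates 1, 2 and 3. With CFSE, MRPL57 (0.50), MRPL41 (0.55) and MRPL40 (0.54) had the smallest p beside MRPS14 and MRPL53. MRPL41 held 24.2, 29.5, 27.6 and 29.6 CPM on d1 and 48.3, 42.8, 35.03 and 45.2 CPM on d5.

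The dye itself was compared at each day. On d1, 5 members were higher with CFSE than with DMSO (6.85%, where 9.73% of all genes were) and 2 lower (2.74%, where 12% were). These included MRPL2 (0.46), a homolog of bacterial L2 at the peptidyl transferase centre, MRPS23 (0.39), MRPL39 (0.50), MRPL32 (0.44) and, lower, MRPL23 (-0.34). MRPL39 held 37.2, 41.0, 30.5 and 37.3 CPM with CFSE and 27.8, 30.0, 27.5 and 20.4 CPM with DMSO, which do not overlap. Upper-quartile scaling gave 4 higher and 4 lower (8.85% and 12.5% of all genes). On d5, 0 members passed (edgeR quasi-likelihood test, 5.13% of all genes passed), with 20 members at an unadjusted p under 0.05 (27.4%, against 24.4% of all genes), 1 called by DESeq2 (which called 10.5% of all genes), and a median of 0.22 against -0.03 for all genes. On d5 the CFSE samples summed to 4291 ± 511 CPM and the DMSO samples to 3778 ± 432 CPM, and they overlapped (SD, n = 4). Proliferation genes were higher with CFSE on d5 in 13 of 14 cases. The test of whether the dye changed the time effect called 0 members (0.999% of all genes), with 9 at an unadjusted p under 0.05 (12.3%, against 17% of all genes) and 1 by DESeq2 (4.24% of all genes). Leaving out 1 replicate number gave 0 to 16 calls for time with DMSO, 5 to 19 for time with CFSE (5 without replicate 1 and 5 without replicate 2) and 0 to 3 for the dye on d1, so the counts in the controls depended on single replicates. The share of all genes called in these fits is not given here.

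**Figure D5:**
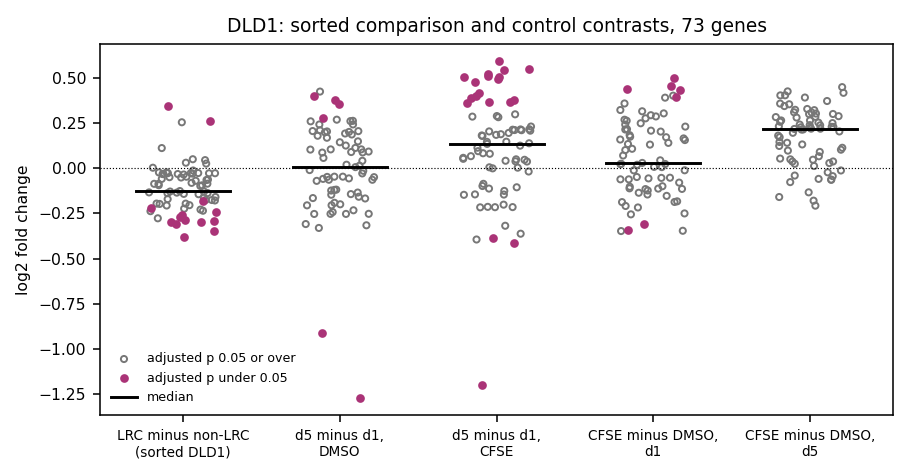
Log2 fold changes of the 73 members in sorted DLD1 (LRC minus non-LRC) and in the control contrasts of time and dye, 1 point per gene, filled where the adjusted p was under 0.05, with a black line at the median. The medians are -0.13 for the sorted comparison, 0.01 and 0.14 for time with DMSO and CFSE, and 0.03 and 0.22 for the dye on d1 and d5.

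The summed members ran from 3018 to 3209 CPM in sorted DLD1 LRCs and from 3424 to 3483 CPM in non-LRCs. The unsorted samples ran from 3226 to 4800 CPM, so they overlapped the non-LRCs, and the lowest of them lay just above the highest LRC sample. These sets also differ in sorting and in labeled day. Cytosolic ribosomal protein genes summed to 31006 to 46101 CPM in the unsorted group means, against 70953 CPM in sorted non-LRCs and 74628 CPM in LRCs. The part of these differences in the summed values was not tested. Of the 12 members lower in DLD1 LRCs, 3 were among those higher on d5 with CFSE, where 21.9% of all tested members were higher. The same overlap over all genes was not counted. With TMM scaling, 0 of the control medians lay below 0.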

How the data were processed

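RNA was sequenced from 64 samples, and the deposited files hold raw read counts per Ensembl gene, 1 file per sample. The submitters' notes name TopHat, HTSeq, DESeq and hg19 without versions, and the annotation and strand setting are not given in the sources used here. The authors describe 4 biological replicates per group. Rows that name no gene were left out of library sizes; reads outside genes made up 5.19% to 14.8% of a sample. A gene was kept where 4 or more of the samples compared held 10 or more reads, and was tested with edgeR 4.0.16 (R 4.3.3, limma 3.58.1) by the quasi-likelihood test with TMM scaling and Benjamini-Hochberg adjustment over all genes tested, at 0.05. The 48 sorted samples were fitted together with line as a covariate, then by line, then for unequal effects between lines, and the 16 controls were fitted together. Log2 CPM used a prior count of 2. The code was tested on simulated data. Alternatives were DESeq2 1.42.0, other scalings and filters, a replicate block, omission of a replicate or a line, and all 48 samples in 1 fit. Replicate numbers were taken to pair samples where every same-numbered pair correlated over 0.1 in its deviations from the group means. This held in DLD1 (lowest 0.254), HCT15 (0.333), HT55 (0.220), SW48 (0.185) and time with CFSE (0.159). It did not hold in RKO (-0.0913), SW948 (-0.0137), time with DMSO or either dye contrast. The main fits held no replicate block in any line. Counts out of 24 pairs include the same-numbered samples of RKO and SW948, which did not meet this rule. Members and lists were chosen with earlier results of these data known.

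Named members were the 10 with the smallest p in each direction across lines, the 3 with the smallest p in each line and in the test between lines and the 5 in each control contrast, all among those past the threshold (so none in HCT15, HT55, SW48 and SW948 or for the dye on d5), the 3 highest and the 3 lowest per length, the 3 with the widest range between lines, the filtered member and the MRPS18 paralogs, and up to 3 genes per other list. MRPL41 and MRPS6 in DLD1, MRPL41 and MRPS33 in RKO, and single replicates of genes in other lines were added after their values were seen, as were KRT8, KRT18, ABRAXAS1, CCDC142, SLC5A3, NRF1, GABPA, PPRC1, CD14, VWF and COL1A1. The control values of MYC and PPRC1 were added in the same way.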

Additional observations from a re-analysis of the deposited data

Results flagged for a closer look

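In 7 of 200 groups of 4 examined, 1 sample stood apart from the other 3 beyond Dixon's critical value for 4 samples, and chance alone flags about 1 group in 20. MRPS34 stood at 63.7 CPM in DLD1 LRC replicate 4, against 75.2 to 77.0 CPM in the others, and at 54.8 CPM in SW948 LRC replicate 4, against 56.6 CPM in the other 3. MRPS9 stood at 43.9 CPM in RKO LRC replicate 4 (others 46.7 to 47.1 CPM) and at 57.2 CPM in SW948 LRC replicate 4 (others 50.3 to 51.04 CPM). MRPL4 stood at 53.7 CPM in HCT15 non-LRC replicate 4 (others 61.4 to 62.1 CPM), MRPS28 at 9.96 CPM in SW48 LRC replicate 2 (others 8.68 to 8.89 CPM) and MRPS6 at 37.7 CPM in HCT15 LRC replicate 1 (others 48.6 to 49.8 CPM).

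The effect of LRC against non-LRC differed between lines for 14 members by the test of the difference itself (edgeR quasi-likelihood test). This is 19.2% of members, close to the 14.3% of all genes. The adjusted p-values were 0.00071 for MRPS34, 0.0015 for MRPL24 and 0.0057 for MRPS18C.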

How the results depend on the processing

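Of the counts of members called, 102 stayed within 1.5 times of the reported count and 40 moved further. The count across lines fell from 44 to 23 without RKO and lay between 27 and 35 when a replicate number was left out (27 without replicate 3). The count between lines was 5 without the filter on low counts, 30 with the replicate block and 2 to 17 without a replicate. In DLD1 it was 29 with the replicate block, 8 with all 48 samples in 1 fit and 2 to 11 without a replicate. All 48 samples in 1 fit gave 2 in HCT15, 2 in HT55, 1 in SW48 and 1 in SW948. The replicate block gave 11 in HCT15, 3 in SW48, 11 for the dye on d1 and 3 for the dye on d5. DESeq2 gave 1 in SW48, 1 for the dye on d5 and 1 for the dye by day term. Without the filter there were 2 in SW948, 2 for time with DMSO and 0 for the dye on d1, and upper-quartile scaling gave 3 for time with DMSO. Leaving out a replicate gave 0 to 2 in HT55, 0 to 2 in SW948, 0 to 16 for time with DMSO, 5 to 19 for time with CFSE, 0 to 3 for the dye on d1 and 0 to 2 for the dye by day term. The RKO count stayed within 1.5 times of 54 under every alternative run, and was 49 with the replicate block. Shares of all genes called in the same fits are not given beside the counts in this paragraph. A move in a count is therefore not a result about the members. The cause of these moves was not tested. Of the values for named members, 363 kept their direction and side of the threshold, 59 kept the direction but no longer passed, and 0 reversed. MRPL53, at 1.07 to 5.22 CPM in the controls, is limited by depth.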
